A study of Mus musculus with 3 samples.

Results

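The 10 genes described here encode ligands, receptors and signalling proteins of the LIF, IL6 and STAT3 pathway: Lif, Il6, Clcf1, Lifr, Il6ra, Il6st, Osmr, Jak1, Stat3 and Socs3. They were chosen by name among the 31510 genes of the deposited tables, with earlier results of these data known. Of the 10, 8 were found by the symbol in the tables, and the other 2, Lif and Stat3, by the Ensembl name column. RNA came from mouse blastocysts in delayed implantation, a pause of the embryo before attachment that ends when ovarian estrogen acts on the uterus. All mothers were CD-1 mice of 2 months whose ovaries were removed on day 4 of pregnancy and who received 2 mg of progesterone per mouse on each of days 5 to 7. Dormant blastocysts were flushed on day 8 without estradiol (E2). Reactivating and reactivated blastocysts were collected 6 h and 12 h after an E2 injection on day 7. Each state was 1 library from a pool of more than 3000 blastocysts, so no difference between states had a replicate check, and no test across replicates or p-value was possible. The labels give the time since E2, not the clock time of each of these collections.

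In this pathway a secreted cytokine brings receptor chains together at the cell surface. LIF pairs its receptor LIFR with the shared chain gp130, the product of Il6st, while IL6 first binds IL6RA and then gp130. The kinase JAK1 on these chains phosphorylates STAT3, which enters the nucleus and switches on its targets, Socs3 among them, and SOCS3 in turn blocks the receptor and the kinase. LIF made by uterine glands is required for implantation in mice, and mouse embryos that lack gp130 lose their epiblast during delayed implantation. The tables hold RNA levels, and STAT3 phosphorylation was not measured.

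Libraries held between 9298675 and 12941447 reads in exons. Levels are RPKM, which divide exon reads by exon length and library size, as the authors deposited them. Intervals in brackets are 95% Poisson intervals of the reads behind a level or exact binomial intervals of a ratio of reads or of a share of reads, and cover counting error only. Differences are log2((RPKM + 1)/(RPKM + 1)), the later state over the earlier one, a scale that understates changes of low genes. A gene was called higher or lower when this difference was at least 1 in size (2 times) and the higher library reached 1 RPKM. By this rule 5.27% of 12037 genes were higher and 7.66% lower in reactivated than in dormant blastocysts. Together these were 12.9%. The shares were 2.68% higher and 3.07% lower of 12126 genes (5.75% together) for reactivating against dormant, and 3.82% higher and 7.63% lower of 12065 genes (11.4% together) for reactivated against reactivating. Among protein-coding genes alone, to which all 10 belong, 3.63% were higher and 5.53% lower (9.16% together) in reactivated against dormant, 0.683% and 0.291% (0.974% together) in reactivating against dormant, and 2.44% and 6.6% (9.04% together) in reactivated against reactivating blastocysts. Upper-quartile scaling turned the split of the first comparison from 634 higher and 922 lower genes into 810 and 750, and that of the last from 461 and 920 into 707 and 634. Markers of the blastocyst's own tissues were present in all 3 libraries: each of 8 trophectoderm, 6 epiblast and 6 primitive endoderm markers reached 1 RPKM in each of them.

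Of the 10 genes, 4 stood lower in reactivated than in dormant blastocysts: Lif, Il6, Stat3 and Socs3. Il6ra alone stood higher. The other measured members did not pass the rule, namely Lifr, Il6st, Clcf1 and Jak1, and Osmr stayed under 1 RPKM in every library. Of the 9 members with at least 1 RPKM in either library, 4 were thus lower and 1 higher, where 7.66% and 5.27% of all genes and 5.53% and 3.63% of protein-coding genes were. As the members were chosen with earlier results of these data known, these counts are a description only. The median difference of the 9 was -0.38, against -0.07 over all genes. None of the 8 members measured at 6 h was called in reactivating against dormant blastocysts, where 5.75% of all genes and 0.974% of protein-coding genes were. The median of the 8 was -0.06 against 0.06 over all genes. In reactivated against reactivating blastocysts 3 of 9 were lower and 1 higher, where 7.63% and 3.82% of all genes were. Among protein-coding genes these shares were 6.6% and 2.44%. In a pool of whole blastocysts, fewer cells of a type and less RNA per cell cannot be told apart.

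**Figure D1:**
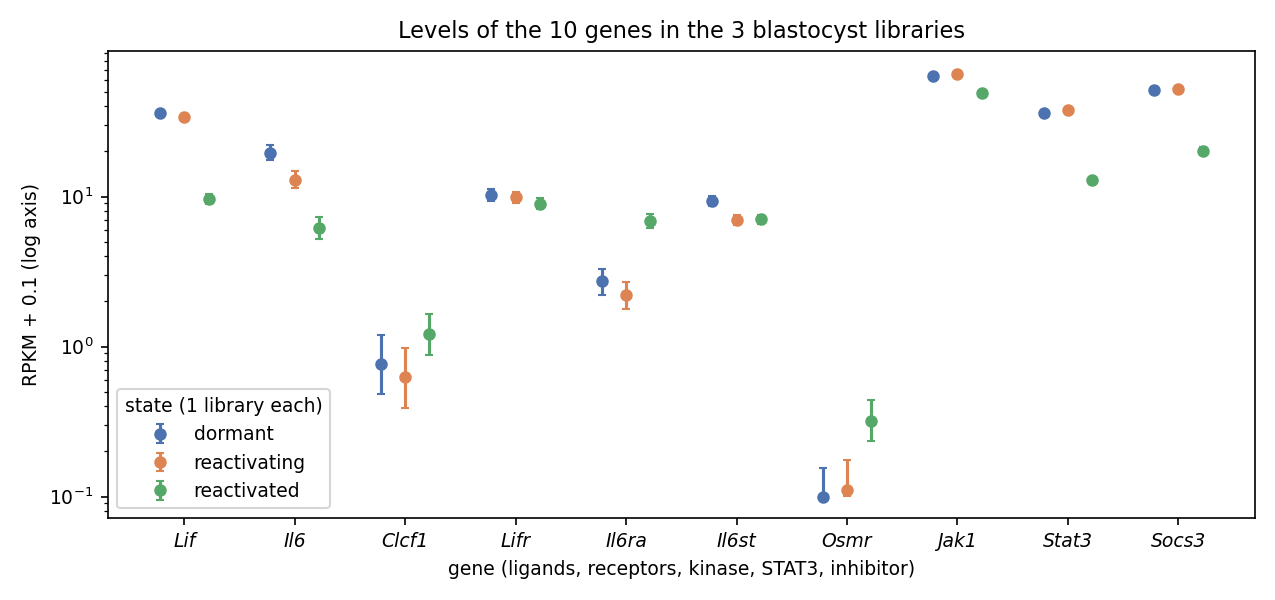
RPKM plus 0.1 (log axis) of each of the 10 genes in the dormant, reactivating and reactivated library, with 95% Poisson intervals of the reads. Lif, Stat3 and Socs3 were level in the first 2 states and lower in the third, Il6 was lower in each later state, and Il6ra was at 6.77 RPKM in reactivated against 2.62 RPKM in dormant blastocysts.

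Both cytokine genes with appreciable RNA were lower at 12 h. Lif, the gene of leukemia inhibitory factor (ENSMUSG00000034394, GRCm38 chromosome 11, 4257557 to 4272514), had 35.8 RPKM in dormant blastocysts (34.2 to 37.3, 2039 exon reads), 34.0 RPKM in reactivating (32.5 to 35.4, 2152 reads) and 9.55 RPKM in reactivated ones (8.87 to 10.3, 732 reads). The first 2 libraries overlapped in their intervals, and the reactivated library lay below both. Reactivated over dormant gave a ratio of exon reads of 0.267 (0.245 to 0.291), a log2 difference of -1.80, the most negative among the 10 genes. Against the reactivating library the ratio was 0.281 (0.258 to 0.306).

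Il6, the gene of interleukin 6 (ENSMUSG00000025746, chromosome 5, 30013114 to 30019981), had 19.5 RPKM in dormant (17.4 to 21.8, 304 reads), 12.9 in reactivating (11.2 to 14.7, 223 reads) and 6.10 in reactivated blastocysts (5.09 to 7.26, 128 reads). The 3 intervals did not overlap, so that each later library was lower than the one before beyond counting error. The log2 difference was -1.53 for reactivated against dormant, which passed the rule. It was -0.56 for reactivating against dormant and -0.97 for reactivated against reactivating, which did not. The last of these passed with a pseudocount of 0.1 and with scaling to all exon reads.

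Clcf1, a cytokine of the same family that signals through LIFR and gp130, was near the detection limit. It had 0.67 RPKM in dormant (0.382 to 1.09, 16 reads), 0.53 in reactivating (14 reads) and 1.12 in reactivated blastocysts (0.783 to 1.55, 36 reads), and none of its reads crossed an exon junction in any library. The intervals of the 3 states overlapped, and the ratio of reactivated over dormant was 1.67 (0.905 to 3.23), while that of reactivated over reactivating was 2.13 (1.12 to 4.27). Its intron reads numbered 43 in the dormant, 21 in the reactivating and 19 in the reactivated library. The gene overlaps another annotated gene on the same strand, AC109138.7, so that the source of these reads is uncertain. Of 8 other ligand genes of the family, 7 stayed under 1 RPKM in every library, among them those of interleukin 11, oncostatin M and cardiotrophin. The exception was Cntf, ciliary neurotrophic factor, at 6.43 RPKM in the dormant, 6.81 in the reactivating and 6.75 in the reactivated library.

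Markers of other cells that can make these cytokines were checked in the same libraries. Of 10 markers of uterine epithelium, between 3 and 4 reached 1 RPKM in a library. Their summed level was 38.3 RPKM in the dormant, 39.3 in the reactivating and 21.2 in the reactivated library, of which Wfdc2 made up 30.1, 32.7 and 13.4 RPKM. Wfdc2 was called lower in reactivated against dormant blastocysts, as Lif was. Foxa2, a marker of uterine glands, was not called and had 1.82, 1.84 and 3.60 RPKM in the same order of states (0.71), and Ltf had 0.28, 0.91 and 0.94 RPKM. Esr1 and Pgr, the genes of the estrogen and progesterone receptors, were at most at 0.16 RPKM and Cdh16 was at 0 in 2 of 3. Of 8 immune cell markers, 4 reached 1 RPKM in the dormant, 3 in the reactivating and 2 in the reactivated library. Their sum was 23.2, 17.0 and 7.28 RPKM in the same order of states, with Laptm5 at 13.7, 11.5 and 4.11 RPKM, Ptprc, which encodes the common leukocyte antigen, at most at 0.27 RPKM, and Tyrobp at 0 in the reactivated one. In reactivated against dormant blastocysts 7.66% of all genes and 5.53% of protein-coding genes were lower. Of the 4 immune markers measured there, 3 were called lower: Laptm5, Tyrobp, from 9 exon reads in the dormant library, and Cd14. The part of these cells in the levels of Lif and Il6 was not tested. The 7 stromal markers summed to 4.74, 3.69 and 1.48 RPKM, and the 5 red blood cell markers all stayed below 1 RPKM.

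Of the 4 receptor chains Il6ra alone was called, higher in reactivated blastocysts. Lifr, the LIF-binding chain (ENSMUSG00000054263, chromosome 15, 7090614 to 7197489), had 10.2 RPKM in dormant (9.29 to 11.1), 9.78 in reactivating (8.95 to 10.7) and 8.85 in reactivated blastocysts (8.13 to 9.60). All 3 intervals overlapped, and the ratio of reactivated over dormant was 0.870 (0.769 to 0.984). The deposited model of Lifr has a gene length of 36859 bases, against 106876 in GENCODE M21, so that its level refers to part of the annotated gene.

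Il6st, which encodes the shared chain gp130 (ENSMUSG00000021756, chromosome 13, 112464070 to 112510086), had 9.20 RPKM in dormant (8.54 to 9.91), 6.89 in reactivating (6.34 to 7.47) and 6.93 in reactivated blastocysts (6.43 to 7.46). The dormant library lay above both others, which overlapped. The log2 difference of -0.36 for reactivated against dormant was within the rule's limit, and so was that of -0.37 for reactivating against dormant. Its reads across exon junctions did not follow its exon reads. They numbered 54 in the dormant, 53 in the reactivating and 105 in the reactivated library, a ratio, scaled to library size, of 1.45 (1.03 to 2.05) for reactivated over dormant, while the ratio of intron reads was 0.604 (0.513 to 0.712).

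Il6ra, the chain that binds IL6 (ENSMUSG00000027947, chromosome 3, 89864059 to 89913196), had 2.62 RPKM in dormant (2.11 to 3.20, 94 exon reads), 2.10 in reactivating (1.68 to 2.60, 84 reads) and 6.77 in reactivated blastocysts (6.05 to 7.54, 327 reads). The first 2 libraries overlapped and the reactivated one was higher than both. The ratio of reactivated over dormant was 2.59 (2.05 to 3.29), a log2 difference of 1.10, and that of reactivated over reactivating 3.22 (2.52 to 4.14). More reads of this gene lay in introns than in exons in every library. They were 171 in the dormant, 181 in the reactivating and 402 in the reactivated library, or 64.5%, 68.3% and 55.1% of its exon and intron reads. Junction reads, which mark spliced RNA, numbered 18 in the dormant, 3 in the reactivating and 34 in the reactivated library. Scaled to library size, their ratio of reactivated over dormant was 1.40 (0.771 to 2.64), an interval that includes 1. That of reactivated over reactivating was 9.37 (2.95 to 47.7).

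Osmr, the second chain of the oncostatin M receptor, had no exon read in the dormant library, which allows up to 0.0443 RPKM, 1 read in the reactivating and 20 reads (0.22 RPKM, 0.134 to 0.340) in the reactivated one. Taken as they stand and scaled to library size, the 20 reads were 4.96-fold above the 3 reads that a count of 0 allows in the dormant library. With the counting error of both libraries, the 95% interval of the ratio of reactivated over dormant reads began at 3.67. The level of Osmr remained under 1 RPKM, so that the rule did not apply. The other receptor chains of the family, those for interleukin 11, ciliary neurotrophic factor and interleukin 27, stayed at or under 0.57 RPKM in every library.

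Among the 3 intracellular members, Stat3 and Socs3 were lower at 12 h and Jak1 was not called. Stat3, the transcription factor of the pathway (ENSMUSG00000004040, chromosome 11, 100885098 to 100939540), had 35.8 RPKM in dormant (34.6 to 37.1, 3082 reads), 37.5 in reactivating (36.3 to 38.8, 3587 reads) and 12.7 in reactivated blastocysts (12.1 to 13.4, 1469 reads). The reactivated library lay below the other two, which overlapped. The log2 difference was -1.43 for reactivated against dormant and -1.49 for reactivated against reactivating, or ratios of exon reads of 0.355 (0.333 to 0.377) and 0.338 (0.318 to 0.360).

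Socs3, the feedback inhibitor (ENSMUSG00000053113, chromosome 11, 117966079 to 117970047), had 51.4 RPKM in dormant (49.0 to 53.8, 1843 reads), 51.8 in reactivating (49.6 to 54.1, 2067 reads) and 19.9 in reactivated blastocysts (18.7 to 21.2, 961 reads). It was again level in the first 2 states and lower in the third, with a ratio of reactivated over dormant of 0.388 (0.358 to 0.420) and a log2 difference of -1.32.

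Jak1, the kinase (ENSMUSG00000028530, chromosome 4, 101152367 to 101265282), was the highest of the 10 genes in all 3 libraries. It had 63.6 RPKM in dormant (61.8 to 65.4), 65.8 in reactivating (64.0 to 67.5) and 48.8 in reactivated blastocysts (47.4 to 50.1). The reactivated library was below both others beyond counting error, but the log2 difference from dormant of -0.38 was small beside those of Stat3 and Socs3.

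**Figure D2:**
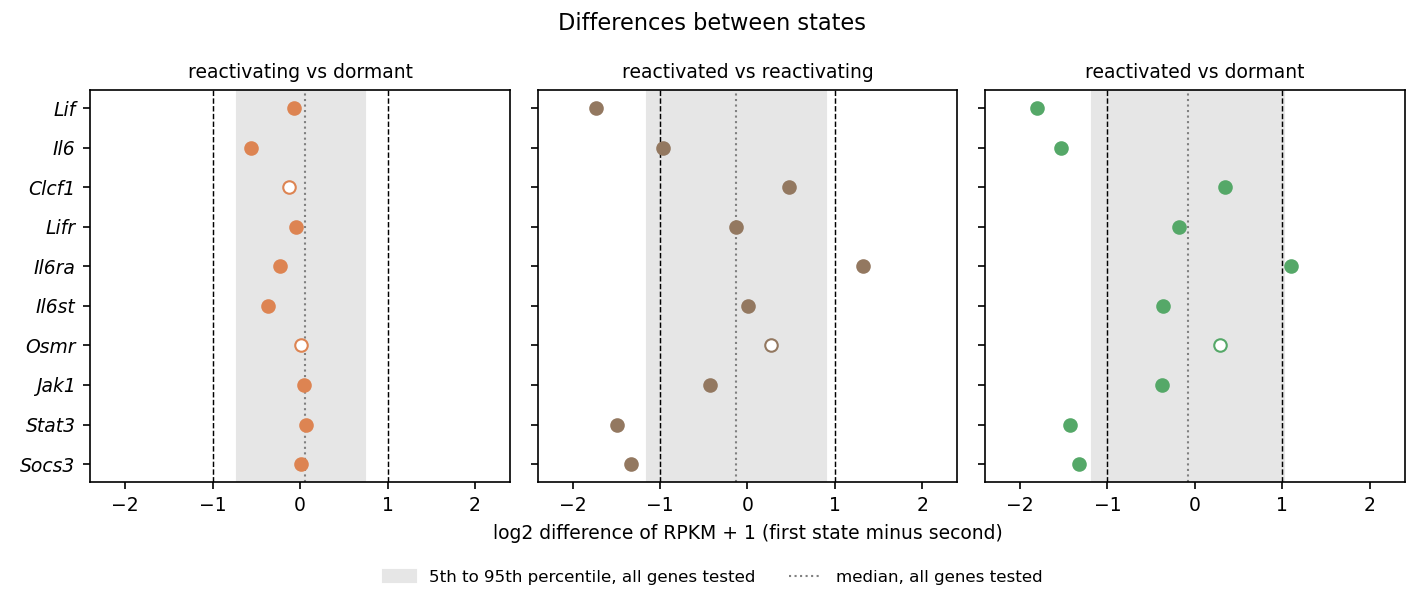
Log2 differences of RPKM + 1 for the 10 genes in the 3 comparisons, with the 5th to 95th percentile of all genes tested as a grey band, their median as a dotted line and the size rule of 1 as dashed lines. Open points are genes under 1 RPKM in both libraries. At 6 h none of the 10 passed the rule against the dormant library, where 0.974% of protein-coding genes did. At 12 h Lif, Il6, Stat3 and Socs3 lay below -1 and Il6ra above 1 against the dormant library.

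The order of the levels within a library therefore shifted. In dormant blastocysts it ran Jak1, Socs3, Stat3, Lif, Il6, Lifr, Il6st, Il6ra, Clcf1, Osmr. Stat3 and Lif overlapped in their intervals, as did Lifr and Il6st, and every other pair of neighbours was apart. Reactivating blastocysts had the same order with all neighbours apart. In reactivated blastocysts the first 4 places were the same, followed by Lifr, Il6st, Il6ra, Il6, Clcf1 and Osmr. There Lif overlapped Lifr, Il6st overlapped Il6ra, and Il6ra overlapped Il6. The gene of the cytokine IL6 had 6.10 RPKM beside 6.77 RPKM for its receptor chain Il6ra in reactivated blastocysts, and 19.5 beside 2.62 RPKM in dormant ones. Lif and Lifr had 9.55 and 8.85 RPKM in reactivated blastocysts, and 35.8 and 10.2 RPKM in dormant ones. Among the genes with at least 1 RPKM, Lif exceeded 60.6% in the reactivated library and 90.2% in the dormant one.

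Because total RNA was sequenced, reads in introns, which come mostly from RNA not yet spliced, were counted too. For the 4 genes that were lower in reactivated than in dormant blastocysts, intron reads were lower as well. The ratio of intron reads scaled to library size, reactivated over dormant, was 0.314 (0.240 to 0.407) for Lif, from 84 and 199 reads. It was 0.415 (0.363 to 0.473) for Stat3, from 349 and 626 reads, and 0.196 (0.0870 to 0.400) for Il6, from 10 and 38 reads. Socs3, with 6 and 34 intron reads, had a ratio of 0.131 (0.0450 to 0.316). The median of 8287 genes with at least 100 intron reads over both libraries was 0.894. For Il6ra the ratio was 1.75 (1.46 to 2.10), higher in reactivated blastocysts like its exon reads.

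At 6 h the intron reads of these 4 genes were nearer to the dormant level than at 12 h. The ratio of reactivating over dormant was 1.11 (0.919 to 1.35) for Lif, 0.876 (0.542 to 1.42) for Il6 and 1.01 (0.617 to 1.65) for Socs3, all with intervals that include 1. For Stat3 it was 1.21 (1.09 to 1.34), above 1 beyond counting error. Junction reads of Il6 numbered 54 in the dormant, 33 in the reactivating and 10 in the reactivated library, a ratio of reactivated over dormant of 0.138 (0.0625 to 0.273).

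Of the 6 members with at least 100 intron reads over the pair, Jak1 had the widest gap between exons and introns. Its intron reads numbered 2017 in the dormant, 1867 in the reactivating and 819 in the reactivated library, and made up 29.8% (28.7 to 30.9%), 25.5% (24.5 to 26.5%) and 14.3% (13.4 to 15.2%) of its exon and intron reads. The ratio of intron reads scaled to library size, reactivated over dormant, was 0.302 (0.278 to 0.328), while that of exon reads was 0.767 (0.736 to 0.798). On the log2 scale exons exceeded introns by 1.34, a gap larger than that of all but 2.25% of 7072 genes and set against a median of 0.16. The same gap was -0.23 for Lif, -0.23 for Stat3, 0.27 for Lifr, 0.32 for Il6st and 0.56 for Il6ra. Over all genes, introns held 27.7% of exon and intron reads in the dormant, 25.1% in the reactivating and 23.5% in the reactivated library. A processed pseudogene, Gm12785, lies on the same strand within Jak1, and its share of the reads was not tested.

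**Figure D3:**
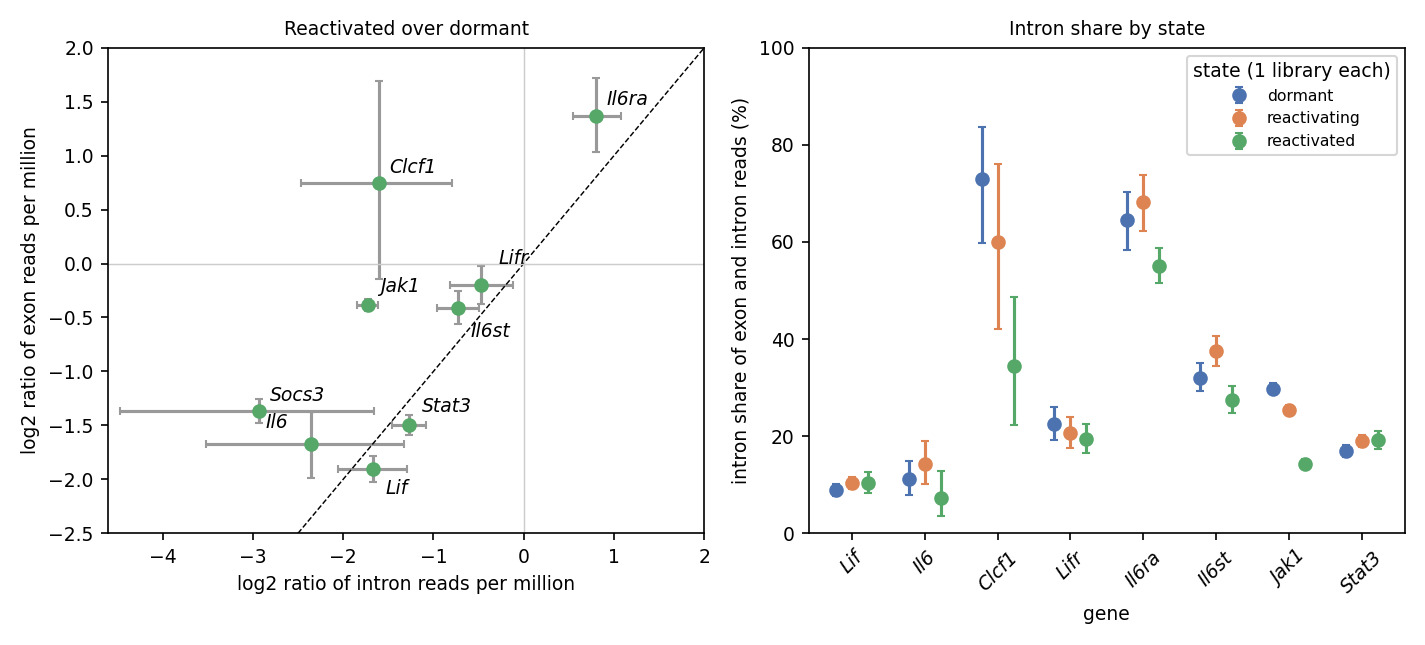
Left, log2 ratio of exon reads against log2 ratio of intron reads, both scaled to library size and reactivated over dormant, with 95% intervals of counting error and the line of equality dashed. Right, share of each gene's exon and intron reads that lay in introns in the dormant, reactivating and reactivated library, with exact 95% binomial intervals. Lif, Stat3 and Il6 were low in both kinds of read. Jak1 lay far left of the line, with an intron share of 14.3% in reactivated against 29.8% in dormant blastocysts. Clcf1 and Socs3 lay further left than Jak1, each from 43 or fewer intron reads per library. Osmr is left out for its low reads, and Socs3 is left out on the right.

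The promoters of the 4 genes that were lower together are shown, as the sequence next to an annotated start of each. These are the 250 bases before the RefSeq start, build GRCm38.p6, 5′ to 3′, and capitals mark the matches to 4 motifs searched on both strands. The motifs were the STAT element TTCNNNGAA, the AP-1 element TGANTCA, the cyclic AMP response element TGACGTCA and the NF-kB element, which is GGG, any 2 bases and TTTCC.
Lif (chr11:4257318-4257567, plus strand): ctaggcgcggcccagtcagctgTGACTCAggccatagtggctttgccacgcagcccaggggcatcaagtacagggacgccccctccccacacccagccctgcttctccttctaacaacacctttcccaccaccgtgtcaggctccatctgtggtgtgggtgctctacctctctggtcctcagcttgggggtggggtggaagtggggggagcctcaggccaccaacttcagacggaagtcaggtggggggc
Il6 (chr5:30012864-30013113, plus strand): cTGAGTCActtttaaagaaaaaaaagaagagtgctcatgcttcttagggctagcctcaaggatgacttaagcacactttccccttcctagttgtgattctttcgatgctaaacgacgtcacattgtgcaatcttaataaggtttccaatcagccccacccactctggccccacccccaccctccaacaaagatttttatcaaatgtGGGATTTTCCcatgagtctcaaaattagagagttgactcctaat
Stat3 (chr11:100939541-100939790, minus strand): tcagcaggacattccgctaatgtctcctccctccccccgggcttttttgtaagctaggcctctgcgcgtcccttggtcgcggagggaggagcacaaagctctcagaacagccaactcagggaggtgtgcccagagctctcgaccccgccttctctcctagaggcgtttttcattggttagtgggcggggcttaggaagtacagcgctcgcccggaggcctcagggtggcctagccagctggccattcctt
Socs3 (chr11:117969367-117969616, minus strand): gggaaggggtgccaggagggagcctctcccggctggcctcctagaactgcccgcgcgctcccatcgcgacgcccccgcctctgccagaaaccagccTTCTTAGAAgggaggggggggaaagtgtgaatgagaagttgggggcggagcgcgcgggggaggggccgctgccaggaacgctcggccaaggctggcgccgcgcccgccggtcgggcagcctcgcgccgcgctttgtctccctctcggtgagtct
The first 2 promoters hold an AP-1 match, TGACTCA in Lif at 228 to 222 bases before the start and TGAGTCA in Il6 at 249 to 243. The Il6 promoter also holds the NF-kB match GGGATTTTCC at 44 to 35 bases before the start. In Socs3 the STAT element TTCTTAGAA lay 154 to 146 bases before the RefSeq start, and the nearest coding transcript start in GENCODE M21 was 180 bases from that start. The Socs3 window lies within the GENCODE gene. Stat3 had no match in its own window. Of the other members with a promoter in the table, Jak1 had the cyclic AMP element TGACGTCA at 101 to 94 bases, and Il6ra, Il6st, Osmr and both Lifr promoters had no match. The RefSeq start of Osmr was 656 bases from the nearest coding transcript start in GENCODE M21, and its window lies within the GENCODE gene. Clcf1 had no entry. No 2 matches overlapped. Among all 32841 promoters of this length, 7.02% held the STAT element, 6.75% the AP-1 element, 1.55% the cyclic AMP element and 1.41% the NF-kB element. A match describes the letters of the window and is not evidence of binding.

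The heptamer TATTTAT, the core of the AU-rich elements by which cytokine messages are marked for rapid decay, was found in the 3′ untranslated region of 4 of the 10 genes. These were the 3 cytokine genes and the inhibitor: Lif held 5 copies, Clcf1 held 4, Socs3 held 2 and Il6 held 1. The 4 receptor genes, Jak1 and Stat3 held none, although the untranslated regions of Lifr (6320 bases) and Il6st (5641 bases) are longer than that of Lif (3180 bases). Over 20928 genes with a complete coding transcript in GENCODE M21, 25.6% held at least 1 copy and 9.34% at least 2. The shares take no account of length. The median region of these genes was 804 bases, against 3180 for Lif, 1474 for Socs3, 922 for Clcf1 and 427 for Il6. The densest 30 bases of each of the 4 genes are shown 5′ to 3′ in DNA letters, with every pentamer ATTTA in capitals. The Il6 stretch holds 2 pentamers but 1 heptamer, as its first ATTTA lies outside a TATTTAT.
Lif: gctgtctATTTAttactatgtcctATTTAt
Il6: actttaagttaATTTAtgattgatATTTAt
Clcf1: aatATTTATTTAtttggagatgttATTTAt
Socs3: ctcagactttgcacatatATTTAtATTTAt
Lif, Il6 and Socs3 were lower in reactivated blastocysts and carry the element. Stat3 was lower as well without it, and Clcf1 carries it and was not called. Zfp36, which encodes a protein that binds such elements and speeds decay in mouse macrophages, had 16.0 RPKM in dormant (14.5 to 17.7), 15.0 in reactivating and 7.04 in reactivated blastocysts. Its log2 difference of -1.08 for reactivated against dormant passed the rule. Zc3h12c, of the Regnase family of RNA-degrading enzymes, had 4.59, 5.33 and 1.81 RPKM in the same order of states and passed the rule against reactivating only (-1.17, and -0.99 against dormant). Adam10 and Adam17, proteases that shed receptor chains from the cell surface, were not called, at 16.0 and 9.10 RPKM in dormant, 13.8 and 10.9 in reactivating, and 17.1 and 12.4 RPKM in reactivated blastocysts.

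Beyond the 10, 81 other genes of the pathway were looked up in 9 lists, and 64 of them reached 1 RPKM in a library of each pair. These lists too were written with earlier results of these data known. In reactivated against dormant blastocysts 9 of the 64 were lower and 1 was higher, with a median of -0.26 against -0.07 over all genes, where 7.66% of all genes were lower and 5.27% higher. At 6 h none of the 64 was called, where 5.75% of all genes and 0.974% of protein-coding genes were. Among inhibitors, 2 of 12 were lower and none higher. Cish, a SOCS family gene induced by STAT5 (chromosome 9, 107296026 to 107302784), had 6.19 RPKM in dormant (5.34 to 7.14), 7.49 in reactivating (6.60 to 8.47) and 1.05 in reactivated blastocysts (0.759 to 1.41), a log2 difference of -1.81. Pias3, an inhibitor of STAT3 binding to DNA, had 6.49 RPKM in the dormant, 4.97 in the reactivating and 2.71 in the reactivated library (-1.01, close to the limit of the rule). Pias4 was called against reactivating only, with 8.39, 11.9 and 4.10 RPKM in the 3 states. Socs1, Socs2 and Socs5 had between 0.55 and 1.27 RPKM, and Socs4, Socs6 and Socs7 were not called.

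None of the other kinases and STAT genes was called in any comparison. In reactivated against dormant blastocysts 12.9% of all genes and 9.16% of protein-coding genes were called. Tyk2, the second kinase of these receptors, had 7.54 RPKM in the dormant, 9.0 in the reactivating and 4.14 in the reactivated library (-0.73 for reactivated against dormant), and Jak2 had 3.0, 3.68 and 3.82 RPKM. The 5 measured STAT genes other than Stat3 had a median difference of -0.50 between reactivated and dormant blastocysts. The most negative was -0.89 for Stat5b, which had 0.90 RPKM in reactivated and 2.52 in dormant blastocysts. The ERK branch of the same receptors, which runs from Ptpn11 and Gab1 to the ERK kinases, had 13 genes measured. None was called, where 9.16% of protein-coding genes were in reactivated against dormant blastocysts. The median of the 13 in that comparison was -0.0013. Map2k1, the gene of a kinase that activates the ERK kinases, was at 44.9 RPKM in reactivated against 27.6 RPKM in dormant blastocysts, which at 0.68 on the log2 scale stayed within the rule.

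In a list of 10 genes taken here as STAT3 targets of naive mouse stem cells, 4 were lower and none higher in reactivated against dormant blastocysts. Whether STAT3 acts on each of them in blastocysts was not tested. Over all genes 7.66% were lower and 5.27% higher. The median of the 10 was -0.90, against -0.07 over all genes. The list was written with earlier results of these data known. Pim1, a kinase gene, had 14.6 RPKM in dormant (13.2 to 16.1), 14.1 in reactivating and 4.62 in reactivated blastocysts (3.96 to 5.36), and its relative Pim3 had 30.1, 25.9 and 12.2 RPKM. The pluripotency factor Sall4 had 104 RPKM in the dormant, 85.7 in the reactivating and 45.2 in the reactivated library (-1.19), and Klf5 had 127, 104 and 62.1 RPKM (-1.02). Esrrb passed against reactivating only. Tfcp2l1, a factor that can stand in for STAT3 in such cells, had 87.6, 85.4 and 52.7 RPKM (-0.72), and Klf4 had 8.07, 6.53 and 3.97 RPKM (-0.87). Neither passed. Nanog and Myc were at 17.7 and 15.3 RPKM in reactivated against 14.6 and 14.2 RPKM in dormant blastocysts.

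Of 13 measured targets known from other cells, 2 were lower and 1 higher, beside 7.66% and 5.27% of all genes, with a median of -0.33. Junb, of the AP-1 family, had 47.2 RPKM in the dormant, 42.4 in the reactivating and 12.5 in the reactivated library (-1.84), and Fos had 49.8, 51.1 and 17.6 RPKM (-1.45). Saa3, an acute phase gene, went the other way, with 2.67 RPKM in dormant (1.63 to 4.13), 5.29 in reactivating and 47.3 in reactivated blastocysts (43.2 to 51.8). Icam1 was called against reactivating only, with 6.51, 10.5 and 3.25 RPKM in the 3 states. Mcl1, Hif1a, Vegfa and Bcl2l1 were not called. Beside these changes, the summed level of the 8 trophectoderm markers was 1229 RPKM in the dormant, 1212 in the reactivating and 951 in the reactivated library, that of the 6 epiblast markers 155, 196 and 190 RPKM, and that of the 6 primitive endoderm markers 75.4, 67.7 and 55.4 RPKM. Pou5f1 made up 87.1, 125 and 124 RPKM of the epiblast sum, and Klf2 was the one called epiblast marker, lower in reactivated against dormant blastocysts (-1.44), with 7.45, 6.42 and 2.12 RPKM in the 3 states. Of the trophectoderm sum, Krt18 made up 807, 834 and 624 RPKM in the same order and was not called. Among the trophectoderm markers Cdx2, at 113, 95.8 and 34.8 RPKM, and Gata3 were called lower in reactivated against dormant blastocysts, and Elf5 higher. The part of cell composition in the targets' levels was not tested.

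**Figure D4:**
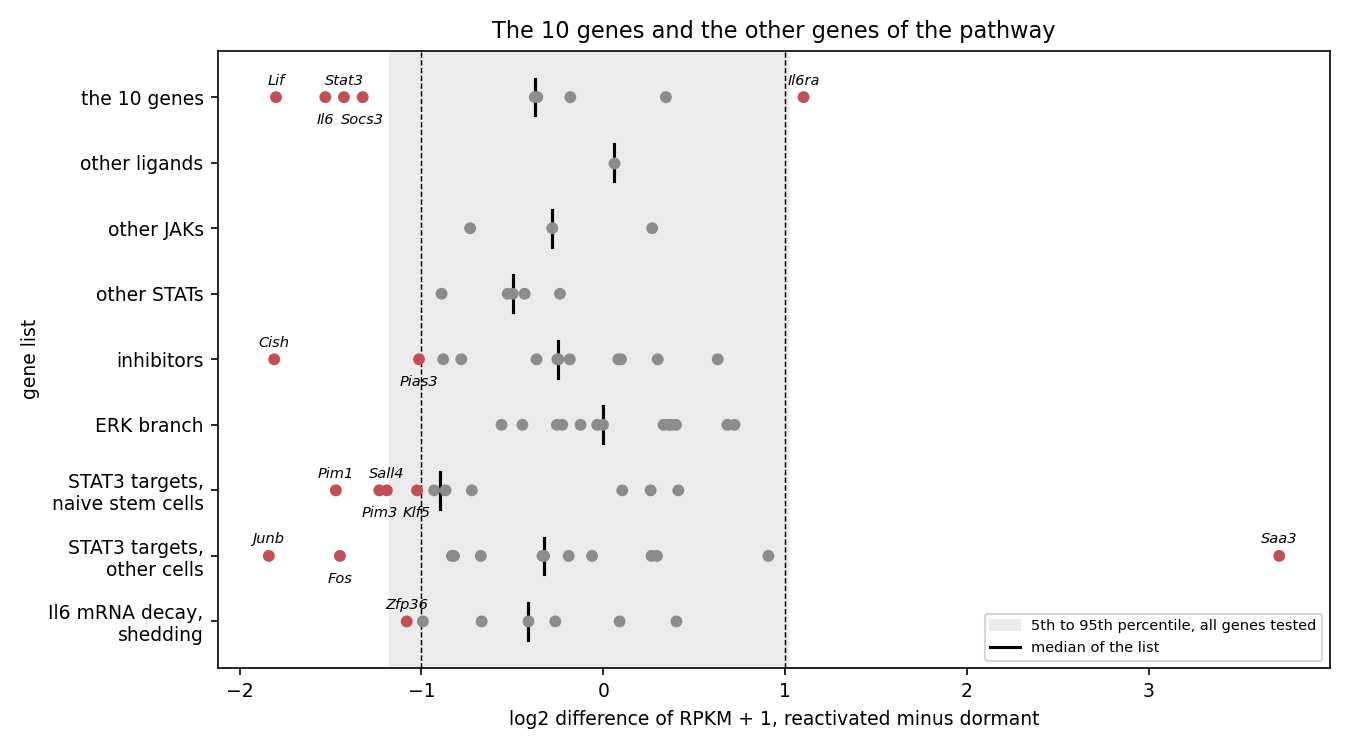
Log2 difference of RPKM + 1, reactivated minus dormant, for each measured gene of the 10 and of 8 other lists of the pathway (1 point per gene, red where the size rule of 1 was passed, black bar for the list median). The grey band is the 5th to 95th percentile of all genes tested. Of the 10 genes 4 lay below -1 and Il6ra above 1, 4 stem cell targets lay below -1, and no gene of the ERK branch, the other JAKs or the other STATs passed. Over all genes tested 12.9% passed. The list of other receptors is left out, as none of its genes reached 1 RPKM.

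The genes whose profile over the 3 libraries was nearest to Il6 and to Stat3 were found by the distance between centred log2(RPKM + 1) values among 7160 genes that reached 5 RPKM in any library. Nearest to Stat3 were Sphk2, a sphingosine kinase (13.2, 13.7 and 4.22 RPKM in dormant, reactivating and reactivated blastocysts, distance 0.0101), Fos (distance 0.0225) and Havcr1 (109, 114 and 39.1 RPKM, distance 0.0244). In all, 182 genes lay within a distance of 0.25 of Stat3. Nearest to Il6 were Dst, a cytoskeletal linker gene (7.68, 5.02 and 2.07 RPKM, distance 0.0272), Tmem131 (20.8, 14.0 and 6.78 RPKM, distance 0.0306) and Aff1 (13.0, 8.06 and 3.78 RPKM, distance 0.0435). Within the same distance of Il6 lay 38 genes. With 3 points per gene these distances describe the 3 libraries.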

How the data were processed

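RNA from pools of blastocysts in 3 states, 1 library per state, was depleted of ribosomal RNA and sequenced as 50 bp single-end SOLiD reads, per the labels' protocols. The authors deposited, per the file headers, read counts per gene in exons, in introns, across junctions and on the opposite strand, and an RPKM per gene. The submitters' processing notes name GRCm38. No aligner, counting program or annotation release was given in the sources read. In all 31510 rows of each table, exon plus intron reads equalled genome plus junction reads minus reads counted in both. The deposited RPKM implied library totals of 14118723 (dormant), 15687239 (reactivating) and 18982195 reads (reactivated).

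Differences, calls and exact intervals were computed with Python 3.11.15, pandas 2.3.3 and SciPy 1.17.1 over the whole table, and the procedure was tested on simulated data. The gene lists and members were chosen with earlier results of these data known. Named genes were the 10 members, every gene of the other pathway lists that passed the size rule with at least 5 RPKM in its higher library, and the 3 genes nearest in profile to Il6 and to Stat3. Other list genes are named for their values and were chosen after these were seen. The 3 comparisons share libraries. Coordinates and untranslated regions came from GENCODE M21, which held 84.7% of the gene IDs and gave the same gene length for 29.6% of them, and promoters from RefSeq, found for 9 of the 10 members. Alternatives changed the pseudocount, the minimum level and the scaling. Values of 2 genes of the other lists are not reported here.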

Additional observations from a re-analysis of the deposited data

Results flagged for a closer look

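Reads on the strand opposite to a gene were counted separately by the authors and enter none of the levels above. Of the 10 genes, 7 had more than 3 such reads in every library, the limit that a count of 0 allows. Summed over the 3 libraries, Lif had 185, Lifr 51, Il6ra 106, Il6st 57, Osmr 85, Jak1 191 and Stat3 112 reads on the opposite strand. For Osmr these were 51.5% of the reads on both strands, with 18 in the dormant, 24 in the reactivating and 43 in the reactivated library, so that its 80 reads on the gene's own strand were no more numerous. For Il6ra, which overlaps the antisense gene Gm42809, they were 8.07%, and for Lif 3.37%, with 73 in the dormant, 67 in the reactivating and 45 in the reactivated library. Il6 had none in any library. Over all genes the share on the opposite strand was 4.08% in the dormant, 5.08% in the reactivating and 5.18% in the reactivated library.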

How the results depend on the processing

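The same 5 of the 10 genes were called in reactivated against dormant blastocysts under all 7 alternatives: Lif, Il6, Stat3 and Socs3 lower and Il6ra higher. None was called at 6 h under any of them. In reactivated against reactivating blastocysts Lif, Stat3 and Socs3 were lower and Il6ra higher throughout, and Il6 joined them with a pseudocount of 0.1 and with scaling to all exon reads, which was added once the data had been seen. A minimum level cannot change a difference, and with a pseudocount of 1 a call already requires 1 RPKM, so that leaving out the minimum could change no call. Under the other 5 alternatives, 112 of 130 member differences moved by less than counting error, 18 by more, and none changed the sign of a called value. Counts over all genes moved more. A pseudocount of 0.1 gave 959 higher and 1630 lower genes for reactivated against dormant (634 and 922 as reported), 756 and 1618 for reactivated against reactivating (461 and 920), and 617 and 598 for reactivating against dormant (325 and 372). A minimum of 5 RPKM gave 290 and 610 for reactivated against reactivating, and 131 and 185 for reactivating against dormant. Scaling changed the split of the comparison of reactivated with reactivating blastocysts from 461 higher and 920 lower genes to 707 and 634 (upper quartile), 665 and 676 (median ratio) or 583 and 750 (protein-coding reads). It shifted the median of all genes there by 0.16 and 0.13 on the log2 scale with the first 2 of these. Lif stood at -1.55 and -1.58 under them, Stat3 at -1.31 and -1.34 and Socs3 at -1.15 and -1.19. The split for reactivated against dormant became 810 and 750 with upper-quartile scaling. No paired analysis was possible because each state had 1 library. Depth limits Osmr and Clcf1, which had 36 or fewer exon reads per library.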

Other observations

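Other receptors that signal through JAK kinases were looked up in a list chosen after the data were seen, 16 genes of which 9 reached 1 RPKM in reactivated or dormant blastocysts. The list had 1 called gene of the 9, where 12.9% of all genes and 9.16% of protein-coding genes were called in reactivated against dormant blastocysts. Csf3r, the receptor of granulocyte colony-stimulating factor, which also acts through STAT3, had 31.9 RPKM in dormant (30.4 to 33.5, 1570 reads), 34.1 in reactivating (32.6 to 35.7, 1863 reads) and 6.18 in reactivated blastocysts (5.60 to 6.81, 409 reads), a log2 difference of -2.20 for reactivated against dormant. It is abundant in neutrophils. Itgam, 1 of the 8 immune markers, was at 0.35, 0.64 and 0.13 RPKM in the same order of states. In reactivated against dormant blastocysts 7.66% of all genes and 5.53% of protein-coding genes were lower. Of the 4 immune markers measured there, Laptm5, Tyrobp and Cd14 were called lower, as Csf3r was, and 1 was not called. The part of such cells was not tested. Csf2ra, of the receptor for a related factor, had 5.93, 7.37 and 3.46 RPKM (-0.64), while Csf2rb, its partner chain, stayed under 0.3 RPKM. The interferon receptor genes Ifnar1, Ifnar2, Ifngr1 and Ifngr2 were not called, with log2 differences of -0.16, 0.08, 0.39 and 0.02. Il13ra1 had 0.82, 0.79 and 2.43 RPKM, which at 0.91 on the log2 scale stayed within the rule.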
